A study of Arabidopsis thaliana with 4 samples.

Results

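CES (CESTA, AT1G25330), SPT (SPATULA, AT4G36930) and INO (INNER NO OUTER, AT1G23420) are Arabidopsis thaliana transcription factors of the carpel and the ovule. They were taken as 3 of the 14034 genes that the platform annotation ties to a gene probe, and 7 probes list them. The probes are spots of an Operon oligonucleotide array, on which total RNA of inflorescences, the shoots that bear flower buds and open flowers, was hybridised in 2 channels. Each of the 4 arrays, called sets 1 to 4, carried RNA of apetala2 inflorescences in one channel and RNA of wild-type inflorescences in the other. By the labels apetala2 was in channel 1 for sets 1 and 3, and in channel 2 for sets 2 and 4. The labels give neither the apetala2 allele, the strain, the age nor the stage of the flowers. Nothing in them ties the sets to separate plants, so the errors given reflect how ratios spread over these arrays and may be technical alone. Each is the moderated standard error (SE) of limma, which draws the spread of a probe toward that of all probes. The genes were selected on ratios of these same arrays. CES was chosen because it stood out when sets 1 and 4 were set against sets 2 and 3. Values of these genes in that contrast are therefore given as a description with no test. Other probes that passed in that contrast are counted beside the share over all probes.

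The Arabidopsis gynoecium forms from a pair of fused carpels, whose margins give rise to the style, the septum and the transmitting tract through which pollen tubes grow. SPT is a basic helix-loop-helix (bHLH) factor that these margin tissues require, and it overlaps in function with its close relative ALC, which is known for the dehiscence zone of the fruit. CES is another bHLH factor, known both from brassinosteroid signalling and, with its relatives BEE1 and BEE3, from the transmitting tract. INO belongs to the YABBY family and is required for the outer integument, the outer of the coats that enclose the ovule. APETALA2, the gene mutated here, is known to keep the carpel identity gene AGAMOUS out of the outer whorls of the flower.

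Each deposited value is a log2 ratio of the 2 channels of an array, and the sources used here do not name the channel in the numerator. Ratios stopped at the log2 of 100 on either side, and values at that limit were treated as not measured. None of the 28 values of the 7 probes lay at the limit. Between 25741 and 25841 gene probes had a measured ratio per array, and 62.8% to 87.0% of empty-named spots were at the upper limit. Across the 25185 gene probes measured on all arrays, Pearson's r was -0.505 between sets 1 and 2 and -0.509 between sets 3 and 4. It was -0.249 between sets 1 and 3 and -0.136 between sets 2 and 4, although each of these pairs has apetala2 in the same channel by the labels. Between sets 1 and 4 it was 0.317 and between sets 2 and 3 it was 0.310. Sets 1 and 2, and sets 3 and 4, therefore ran in opposite directions, as their labelled channels give. Between these pairs the arrays did not run as the labelled channels give, and the ratios below are not assigned to a genotype. Means are given in both orientations. In the labelled orientation sets 2 and 4 are turned in sign, so that positive values mean apetala2 above wild type provided that channel 1 was divided by channel 2, and the inverse otherwise. In the other orientation sets 2 and 3 are turned, and a positive value means only that sets 1 and 4 were positive.

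The probes of CES and SPT shared their signs on every array, with sizes from 0.66 to 2.67 on the log2 scale, and those of INO did not share one pattern. CES and both SPT probes were positive on sets 1 and 4 and negative on sets 2 and 3. One INO probe had the opposite signs on all 4 arrays, another followed the labelled channels, and the remaining INO probes stayed close to 0. In whole inflorescences fewer cells of a type and less RNA per cell cannot be told apart.

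The CES probe (A001374_01), which lists no other gene, had log2 ratios of 2.67, -2.37, -1.66 and 1.77 on sets 1 to 4. The positive arrays were thus sets 1 and 4 and the negative arrays sets 2 and 3, signs that 12.4% of all probes on 4 arrays had. Among the measured gene probes of each array, 84 of 25778 were higher than CES on set 1 and 313 of 25741 on set 4. Only 45 of 25841 were lower on set 2 and 59 of 25747 on set 3, which placed CES near an end of the distribution on every array. With sets 2 and 3 turned its mean was 2.12 ± 0.20 (moderated SE, n = 4 arrays), a 4.33-fold difference. A larger mean in size was found for 194 of the 25777 probes measured on at least 3 arrays, or 0.753%.

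Taken by pairs of arrays with opposite labelled channels, the mean of set 1 and the sign-turned set 2 was 2.52 for CES, a 5.72-fold difference between the channels. The mean of set 3 and the sign-turned set 4 was -1.72, a 3.28-fold difference. The pairs thus gave CES opposite labelled directions. The labelled mean was small beside its error, at 0.40 ± 0.92 (SE, n = 4, limma adjusted p = 0.949).

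SPT was represented by 2 probes, each of which also lists ALC, so that transcripts of SPT and ALC cannot be told apart. The first SPT probe (A015447_01) had log2 ratios of 1.37, -1.07, -1.52 and 1.20 on sets 1 to 4. The second (A019139_01) had 1.80, -0.93, -0.85 and 0.66 on the same sets. Both shared the signs of CES on 4 of 4 arrays, and they differed from each other by 0.133 to 0.674 on the log2 scale per array.

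The first SPT probe was even across arrays, with turned values between 1.07 and 1.52, a mean of 1.29 ± 0.13 (SE, n = 4) and a 2.44-fold difference. Its standard deviation over the 4 turned values was 0.198, against a median of 0.305 over all probes, and 24.3% of probes had a smaller one. The second was less even, with turned values between 0.66 and 1.80, a mean of 1.06 ± 0.21 (SE, n = 4) and a 2.09-fold difference. Its standard deviation was 0.509, and 77.8% of probes had a smaller one. That of CES was 0.481, and 75.2% of probes had a smaller one. As means of a pair of arrays, formed as for CES, the first SPT probe gave 1.22 for sets 1 and 2 and -1.36 for sets 3 and 4. The second gave 1.37 and -0.75, so for both the pairs ran in opposite labelled directions, as for CES. With the labelled channels their means were -0.07 ± 0.57 (SE, n = 4, limma adjusted p = 0.986) and 0.31 ± 0.49 (SE, n = 4, limma adjusted p = 0.921).

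**Figure D1:**
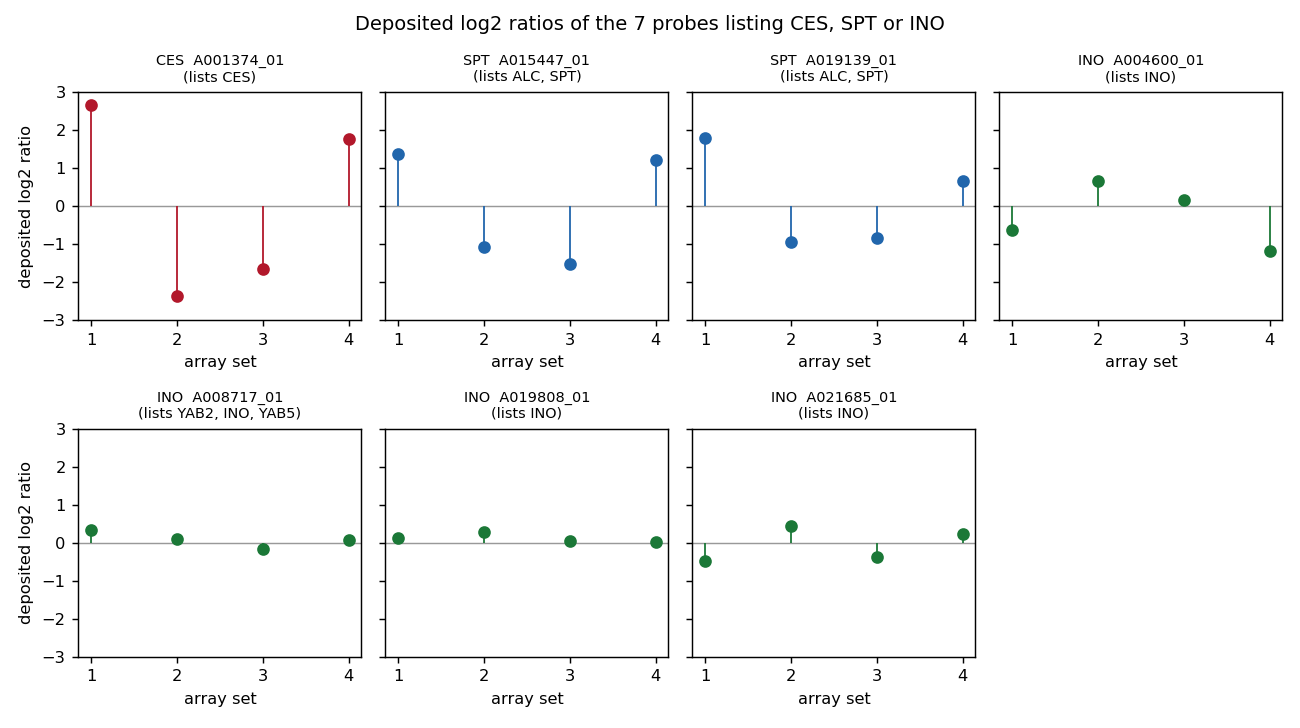
Deposited log2 ratio (vertical axis) on array sets 1 to 4 (horizontal axis) for each of the 7 probes that list CES, SPT or INO, 1 panel per probe, with the genes that it lists above the panel. CES reaches 2.67 on set 1 and -2.37 on set 2, both SPT probes share its signs, and the 4 INO probes differ from one another.

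INO was listed by 4 probes, 3 of them its own. The probe with the largest turned mean in size among these 3 (A004600_01) had log2 ratios of -0.64, 0.66, 0.15 and -1.19 on sets 1 to 4. These are the signs of CES reversed on 4 of 4 arrays, and the value on set 3 was close to 0. Its turned mean was -0.66 ± 0.19 (SE, n = 4), a 1.58-fold difference, and 9.09% of probes had a larger one in size.

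Another INO probe (A021685_01) had log2 ratios of -0.48, 0.44, -0.37 and 0.22 on sets 1 to 4. It was negative where the labels place apetala2 in channel 1 and positive where they place it in channel 2. This is the labelled pattern, and its labelled mean was -0.38 ± 0.11 (SE, n = 4, limma adjusted p = 0.754) and did not pass. The corresponding fold difference was 1.30. Its pairs of arrays gave the same labelled direction, with means of -0.46 for sets 1 and 2 and -0.29 for sets 3 and 4. Its turned mean was -0.08 ± 0.19 (SE, n = 4).

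The third probe of INO alone (A019808_01) had log2 ratios of 0.13, 0.29, 0.04 and 0.02 on sets 1 to 4. The probe that lists INO beside its YABBY relatives YAB2 and YAB5 (A008717_01) had 0.32, 0.09, -0.18 and 0.06. The largest of these values was 0.32 in size, where the standard deviation over gene probes was 0.607 to 0.690. With sets 2 and 3 turned their means were -0.04 ± 0.13 and 0.12 ± 0.13 (SE, n = 4).

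The probes of INO therefore did not agree on the presence or the direction of a difference. The 2 INO probes with the larger ratios had the same sign as each other on 2 of 4 arrays, and they differed by up to 1.41 on the log2 scale on 1 array. Which probe reports INO transcripts was not tested, because the brightness of the spots and the sequences of the probes were not used here.

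Of the 7 probes, 4 kept 1 sign throughout once sets 2 and 3 were turned, 3 of them positive and 1 negative, where 23.0% of all probes on 4 arrays did so (12.4% positive and 10.5% negative). The probes were chosen with this contrast known, and nothing is read from the count. With the labelled channels 1 of the 7 had 1 sign, a negative one, beside 16.3% of all probes (8.76% positive and 7.58% negative), which is a share near the background. In the labelled orientation none of the 7 passed at a limma adjusted p under 0.05, with values of 0.754 or above, and 0.00% of all probes passed on either side. In that fit 1689 probes had an unadjusted p under 0.05, the lowest limma adjusted p of any probe was 0.258, and a test without moderation also passed 0.

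The sum of the squared ratios of a probe on 4 arrays divides into 4 contrasts. For CES 96.3% of it lay in sets 1 and 4 against sets 2 and 3, for the first SPT probe 98.3% and for the second 85.3%. Pooled over all 25185 probes on 4 arrays, where probes with large ratios weigh most, this contrast held 50.3%. The INO probe with the reversed signs of CES had 76.3% there, and the INO probe that followed the labelled channels had 4.58% there and 93.6% in the labelled contrast, which held 24.8% over all probes. For the third INO probe the largest share, 54.8%, lay in the mean of the unturned ratios, which carries any constant difference between the channels. For the probe shared with YAB2 and YAB5 it was 46.4%, in sets 1 and 2 against sets 3 and 4. CES was chosen for sets 1 and 4 against sets 2 and 3, and all 3 genes on these arrays. Nothing is therefore read from how these shares compare with those over all probes.

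**Figure D2:**
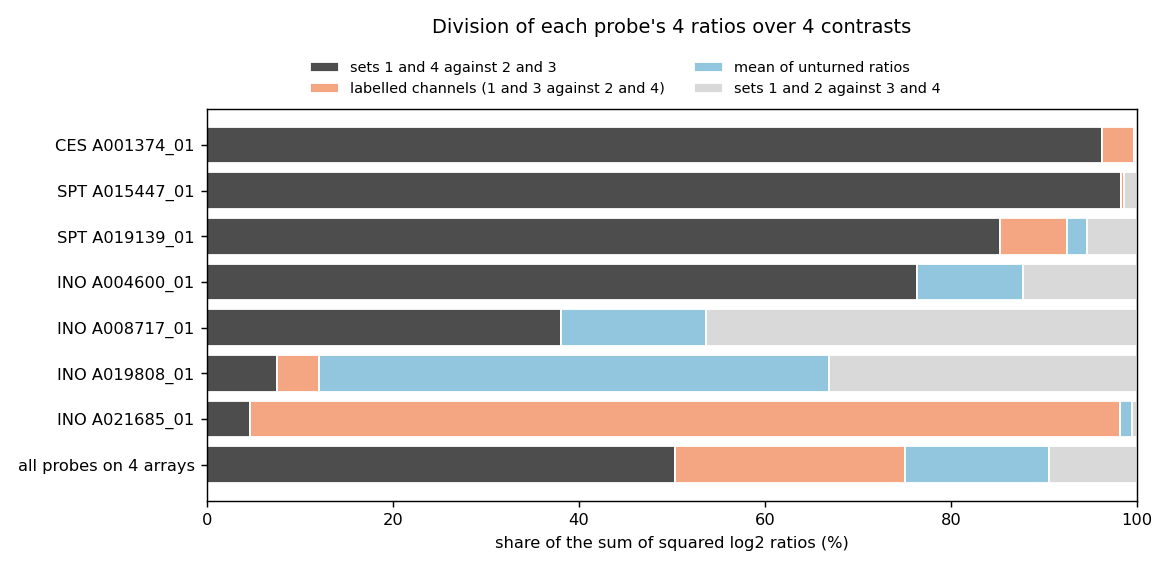
Share of the sum of squared log2 ratios (horizontal axis, percent) that falls in each of 4 contrasts, for the 7 probes and pooled over all probes measured on 4 arrays (rows). Sets 1 and 4 against sets 2 and 3 hold 96.3% for CES and 98.3% for the first SPT probe, whereas the labelled channels hold 93.6% for INO probe A021685_01.

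The probes of other single genes most like each factor were found by the Euclidean distance over the 4 deposited ratios, among 5507 probes. Nearest to CES were AT3G58550, AT5G53710, AT4G00910 and AT1G51030, at distances of 1.45 to 1.71, where the median distance of the 5507 was 4.27. AT5G53710 had ratios of 2.50 and -1.74 on sets 1 and 2, smaller in size than CES, and exceeded CES in size on sets 3 and 4, with 3.20 on set 4. AT4G00910 resembled CES on sets 1 and 2, with 3.10 and -2.53, and was smaller on sets 3 and 4, with -0.72 and 0.47. All 4 of these shared the signs of CES on every array. They were picked as the nearest of 5507 probes, so nothing is read from the shared signs.

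Nearest to the first SPT probe were AT3G27870, AT5G53730, AT5G12930 and AT5G11360, at distances of 0.510 to 0.781 (median of all candidates 2.61). Their turned means lay between 0.92 and 1.14, against 1.29 for SPT. The second SPT probe was farther from the first, at 0.981, than these 4 genes were, and CES was at 1.93. The 4 genes were picked as the nearest of 5507 probes, so nothing is read from this order.

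Nearest to the INO probe with the reversed signs of CES were AT1G60700, AT5G54000, AT1G28100 and AT4G11000, at distances of 0.290 to 0.384 (median of all candidates 1.71). The nearest other probe of INO was at 1.48, farther than these 4, which were picked as the nearest of 5507 probes, so nothing is read from this order. On set 3, where INO probe A004600_01 had 0.15, the 4 nearest genes ranged from -0.11 to 0.41.

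**Figure D3:**
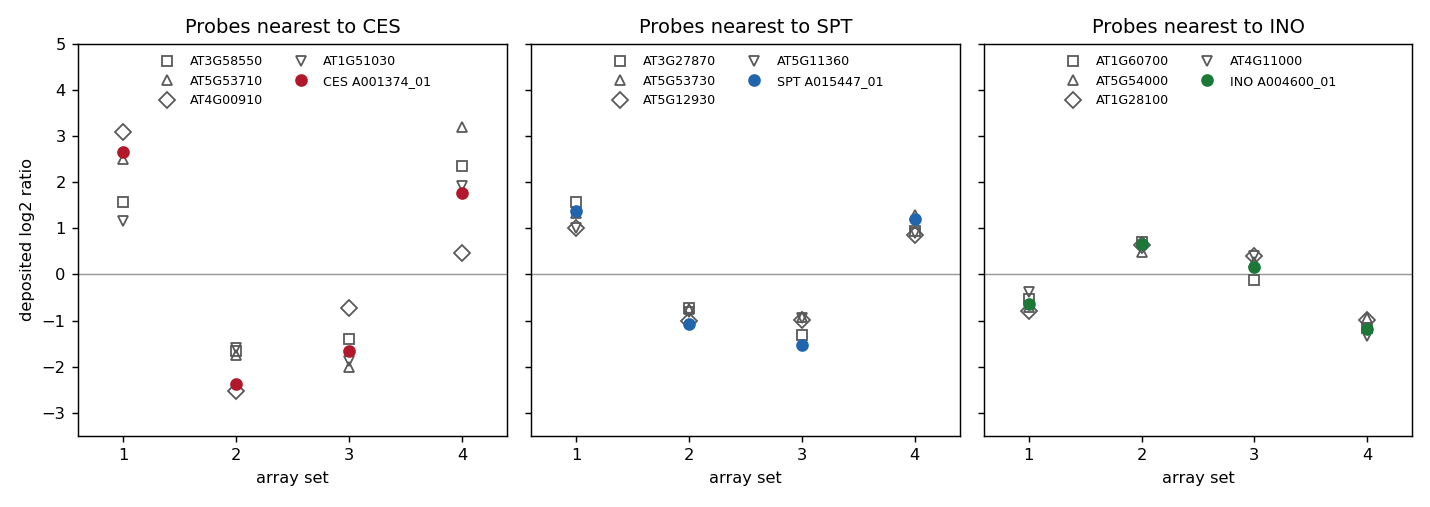
Deposited log2 ratio (vertical axis) on sets 1 to 4 (horizontal axis) of the CES probe, the first SPT probe and the INO probe A004600_01 (filled circles) and of the 4 single-gene probes nearest to each (open symbols). The genes nearest to CES spread most on set 4, from 0.47 to 3.20.

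Few other genes of the carpel and the ovule could be followed. Their counts past a limma adjusted p of 0.05 with sets 2 and 3 turned stand beside 2.05% of all 25777 probes tested, 0.225% on the positive side and 1.82% on the negative side. Without moderation, or with each pair of opposite labelled channels averaged to 1 replicate, 0 of all probes passed. Of 30 carpel and transmitting tract genes, CES and SPT among them, 9 were listed by 9 probes, and only CES and SEU, a transcriptional co-repressor, had a probe of their own. With sets 2 and 3 turned the 6 probes without CES or SPT had means between 0.00 and 0.54 and a median of 0.16, where the median over all probes was 0.03, and none passed. The highest was a probe shared by NGA3 and NGA4, B3-domain factors of the style, with ratios of 0.96, -0.52, -0.42 and 0.24 on sets 1 to 4 and a mean of 0.54 ± 0.15 (SE, n = 4). The other probe listing NGA3 and NGA4 had 0.18 ± 0.17 (SE, n = 4). The probes shared by their relatives NGA1 and NGA2 had 0.36 ± 0.17 and 0.14 ± 0.15, SEU had 0.11 ± 0.13, and the probe shared by LATE and KNU, a zinc finger factor that ends floral stem cell activity, had 0.00 ± 0.13 (SE, n = 4 each).

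The labelled means of these 6 probes lay between -0.15 and 0.24, and none passed. BEE1 and BEE3, which act with CES, were listed by no probe, and ALC was listed only beside SPT. None of the 11 genes of brassinosteroid synthesis and signalling, a pathway in which CES is known, was listed by a probe.

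Of 19 ovule and integument genes, 3 were listed by 7 probes, 4 of them those of INO. SPL, a regulator of the sporogenous cells in ovule and anther, had ratios of -0.43, 0.51, 0.01 and 0.10 on sets 1 to 4, and its means were -0.26 ± 0.14 with the labelled channels and -0.21 ± 0.15 with sets 2 and 3 turned (SE, n = 4). HLL, a ribosomal protein gene that integument growth requires, was listed by 2 probes beside another gene, with labelled means of -0.16 ± 0.17 and -0.09 ± 0.14 and turned means of 0.20 ± 0.16 and -0.06 ± 0.15 (SE, n = 4). None of these 3 probes passed in either orientation.

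Markers of the stamen were followed in the same orientations. Of 11 anther and tapetum genes, 5 were listed by 10 probes. With sets 2 and 3 turned, 8 of the 10 had a negative mean (median -0.68, range -2.07 to 0.65). With the labelled channels 8 of the 10 were also negative (median -0.68, range -1.40 to 0.28), and none passed. The exceptions were the probe of EMS1 and a probe of ATA27 (A025090_01), with turned means of 0.65 and 0.24 and labelled means of 0.28 and 0.07. The other probe of ATA27 (A002691_01) had -1.27 turned and -1.07 labelled, so the probes of this gene did not agree. The medians over all probes were 0.03 turned and 0.02 labelled. In the turned orientation 1 passed, on the negative side, where 1.82% of all probes passed. That probe lists AtVEX1, SWEET8 and SWEET4. The probe of SWEET8 alone had a turned mean of -0.87 ± 0.25 (SE, n = 4) and did not pass. The median pair mean of the 10 probes was -1.41 for sets 1 and 2 (range -2.56 to 0.93). For sets 3 and 4 it was 0.0023, with values on both sides of 0 (range -0.95 to 1.58). CES, a single probe chosen for its ratios, had 2.52 and -1.72. Of 7 mature pollen genes, 2 were listed by 3 probes, with turned means from -2.38 to -0.53. In that orientation 2 passed on the negative side, both of them probes shared by VGD1, a pectin methylesterase of the pollen tube, and VGDH1. Of these, GP008F3 was measured on only 3 arrays, without set 3, and lay just under the threshold (limma adjusted p = 0.0498). The labelled means of the 3 pollen probes lay between -0.34 and 0.61, 2 of them below 0, and none passed. Of 4 leaf and photosynthesis genes, PRK and SBPASE had a probe, with turned means of -0.51 ± 0.32 and -0.16 ± 0.18 (SE, n = 4). Their labelled means were 0.60 ± 0.30 and 0.23 ± 0.17 (SE, n = 4). The part that these tissues have in the ratios of CES, SPT and INO was not tested.

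**Figure D4:**
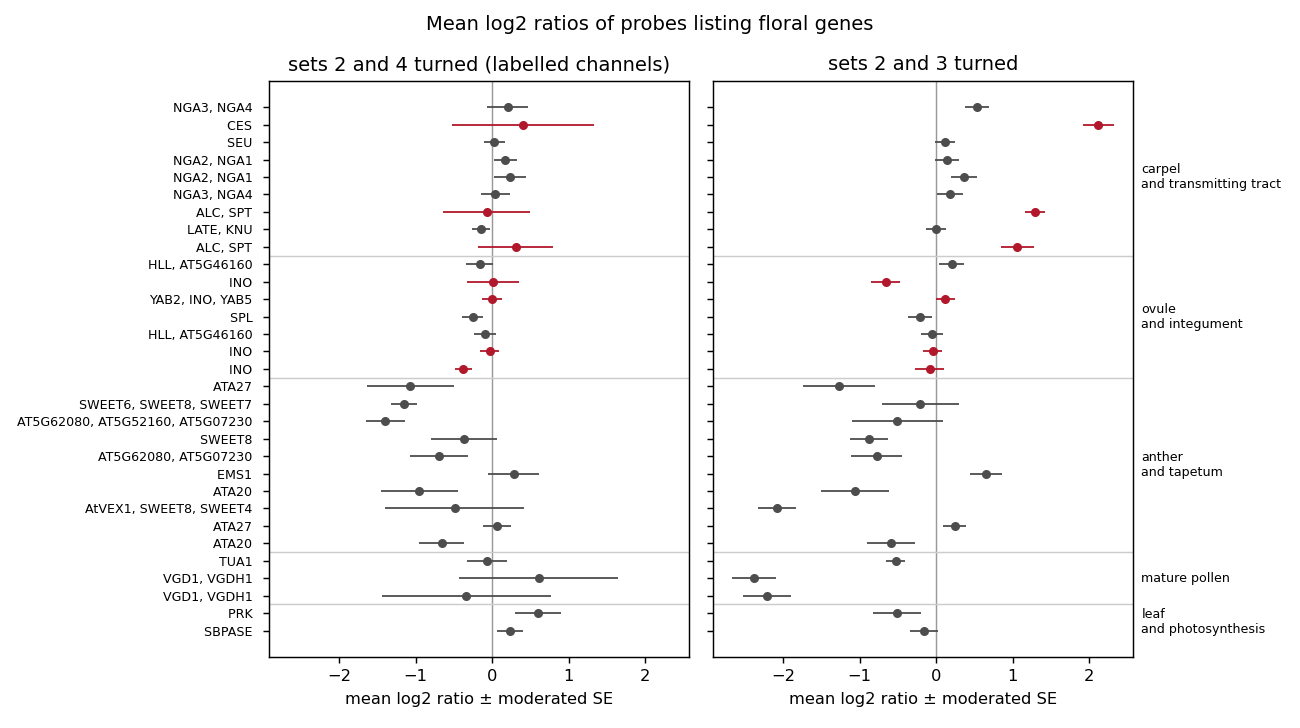
Mean log2 ratio with its moderated SE (horizontal axis) of the probes that list a gene of 5 groups (rows, named by the genes listed), with the labelled channels at left and with sets 2 and 3 turned at right. Probes listing CES, SPT or INO are red. CES stands at 2.12 at right, and the anther and pollen probes lie mostly below 0 in both panels.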

How the data were processed

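The authors deposited log2 ratios of the 2 channels, whose normalization follows a previous article of theirs, per the labels. The sources used here give no scanner, background correction, filter or build, and the brightness behind a ratio is unknown. How far spot brightness or the number of arrays limits the precision was not tested. Of 26933 spots, 459 control spots were left out and 26474 were gene probes. Values within 0.0001 of the limit, the log2 of 100, were dropped. An intercept was fitted with limma 3.58.1 (R 4.3.3; lmFit, eBayes) to probes measured on at least 3 arrays, with a two-sided test against 0, Benjamini-Hochberg adjustment over all probes and a threshold of 0.05, and the fit was tested on simulated data. Probes were named from the supplied platform annotation and the TAIR10.1 gene table: 5784 had 1 gene, 7497 several and 13193 are unnamed here, and of the 13281 with a gene 13202 matched the table in full. No coordinates or sequences are given. The genes named were every probe listing CES, SPT or INO, the 4 nearest single-gene probes for each of the 3 genes (taken at its probe with the fewest genes, then the larger turned mean), and the members of the gene lists. Members, lists and orientations were chosen with earlier results of these data known. Alternatives covered the limit, centring, quantile scaling, probes on all 4 arrays, each array left out, a channel term, averaged pairs, a test without moderation and, added after the data were seen, each pair of arrays alone.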

Additional observations from a re-analysis of the deposited data

Results flagged for a closer look

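Dixon's ratio was examined for 45 probes in 2 orientations, 90 sets of 4 values in all. In 4 of them a single array stood apart beyond the 95% critical value, which about 1 in 20 would do by chance. None belonged to CES, SPT or INO. AT5G12930, one of the genes nearest to SPT, had a turned value of 0.865 on set 4, and its other arrays gave 0.993 to 1.01. AT5G53740 had 0.273 on set 4 with the labelled channels, and its other arrays gave -0.234 to -0.172. SBPASE had -0.299 on set 2 with the labelled channels (other arrays 0.355 to 0.444) and a turned value of 0.444 on set 1 (other arrays -0.422 to -0.299), so the orientation decides which of its arrays is apart.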

How the results depend on the processing

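With sets 2 and 3 turned, 528 probes passed. The count was 158 with limit values kept, 273 with a channel term, 94 to 441 with 1 array left out (94, 441, 117 and 116 without sets 1, 2, 3 and 4), and 0 both when the pairs were averaged (1923 at an unadjusted p under 0.05) and without moderation (2941 at an unadjusted p under 0.05). Centring, quantile scaling and the filter on all 4 arrays gave 539, 514 and 585. In the labelled orientation 0 probes passed under each alternative with at least 3 arrays and with averaged pairs, with 496 to 1780 at an unadjusted p under 0.05. Within 1 pair of arrays alone, 1039 probes passed for sets 1 and 2 and 579 for sets 3 and 4 in either orientation, so calls within a pair did not carry over to the labelled mean of both. With sets 2 and 3 turned CES lay between 1.93 and 2.27 with 1 array left out, the SPT probes between 1.21 and 1.36 and between 0.81 and 1.195, and INO probe A004600_01 between -0.83 and -0.48. The labelled means changed sign with the arrays used. CES had 0.40 on all arrays, -0.35 to 1.13 with 1 left out and -1.72 on sets 3 and 4 alone. The first SPT probe had -0.07, -0.55 to 0.41 and, on sets 1 and 2 alone, 1.22, and the second 0.31, -0.19 to 0.69 and, on sets 3 and 4 alone, -0.75. INO probe A004600_01 had 0.01, -0.38 to 0.23, -0.65 on sets 1 and 2 alone and -0.000199 after centring. INO probe A008717_01 had -0.11 to 0.057 with 1 left out and 0.12 on sets 1 and 2 alone, and A019808_01 had -0.0913 to 0.0516 and 0.0100 on sets 3 and 4 alone. INO probe A021685_01 kept its labelled sign, at -0.43 to -0.34 with 1 array left out. The cause was not tested. Each ratio already compares both genotypes within an array, and no replicate block between groups was fitted because the arrays form 1 group.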

Other observations

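AT5G53710, among the genes nearest to CES, and AT5G53730, among those nearest to SPT, are separated by 1 gene in the TAIR10.1 gene table, which was noticed after their values had been seen. That gene, AT5G53720, had ratios of 0.88, -0.49, -0.28 and 0.15 on sets 1 to 4. These are the signs of CES on each array, which 12.4% of all probes on 4 arrays had. Its mean was 0.45 ± 0.16 (SE, n = 4) with sets 2 and 3 turned. The genes on either side, AT5G53700 and AT5G53740, had turned means of -0.07 and -0.11.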
